A study of Mus musculus with 8 samples.

Results

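Proteasomes are barrel-shaped proteases that cut cellular proteins into peptides, and part of these peptides is carried into the endoplasmic reticulum and shown on the cell surface by MHC class I molecules. Interferons are known to induce a set of genes for this route, namely 3 catalytic subunits that turn the constitutive proteasome into the immunoproteasome, the PA28 activator, the TAP peptide transporter, the docking chaperone tapasin, the class I light chain and the class I transactivator NLRC5. Lymphocytes are known to carry immunoproteasomes without any interferon treatment. Here, 10 genes of this route (*Psmb8*, *Psmb9*, *Psmb10*, *Psme1*, *Psme2*, *Tap1*, *Tap2*, *Tapbp*, *B2m* and *Nlrc5*) were followed in bulk RNA-seq of mouse CD8+ T cells. They were taken by gene symbol from the deposited expression table, which lists 22520 genes and assembled transcripts, and all 10 were found.

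CD8+ T cells from the spleens of wild-type mice were kept under anti-CD3 and anti-CD28 antibodies with IL-2 until day 6, in both groups. From day 3, the cells of 4 libraries received 40 µM diisopropylamine dichloroacetate (DADA), an inhibitor of pyruvate dehydrogenase kinase. Those of the 4 control libraries received the solvent DMSO in equal volume. GEO's genotype field calls the groups control and model, although they differ in treatment. The methods list male C57BL/6J, female BALB/c, male NCG and male OT-1 mice, all young adults of one age range. They do not say which stock gave these wild-type cells, or whether each library came from its own culture or mouse. The p-values therefore measure the spread between libraries. In bulk RNA, fewer cells that express a gene and less RNA per cell cannot be told apart.

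The values are FPKM, that is fragment counts scaled by transcript length and by library size, and they were tested as log2(FPKM + 1), on which the change of low genes is understated. A gene was called when its adjusted p-value was under 0.05 in limma, over the 10666 genes with 4 or more libraries at 1 FPKM or higher. The table holds no read counts. From the steps between its lowest values, the depth was estimated at 13400000 to 16700000 fragments per library with DMSO and 15400000 to 19100000 with DADA. At the shallowest library-gene combination, *Psmb10* then rested on about 331 fragments per kilobase, which would give a counting error of 5.50% for a transcript of 1 kb and less for a longer one, and *B2m* on at least 19284. The 5 markers measured for CD8+ T cells were *Cd8a*, *Cd8b1* and the CD3 genes *Cd3d*, *Cd3e* and *Cd3g*, which other T cells share. Their sum was 674 to 680 FPKM in the DMSO libraries and 776 to 805 FPKM with DADA. Of 30 markers of other cells, 26 stayed below 1 FPKM in every library, *Pax5* of B cells and *Csf1r* and *Adgre1* of macrophages being listed at 0 throughout. The 4 exceptions, named after their values were seen, were *Cd79b*, *Cd68*, *Cd74* and *H2-Ab1*. *H2-Ab1*, a class II beta chain, rose with a log2 fold change of 3.33 (adjusted p = 2.94e-10 in limma), whereas its partner chain *H2-Aa* did not exceed 0.150 FPKM in any library. *Cd74*, the invariant chain of class II, moved the other way and fell from 61.2 ± 4.95 to 40.2 ± 2.40 FPKM (log2 fold change -0.59; adjusted p = 1.02e-05 in limma). The 4 class II markers together were at 59.4 to 71.2 FPKM in the DMSO libraries and 81.4 to 88.7 FPKM with DADA, the 5 dendritic cell markers at 0.0869 to 0.256 and 0.151 to 0.238 FPKM, and their part in the results below was not tested.

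Of the 10 genes, 6 rose with DADA, 2 fell and 2 were not called. The rises were those of *Tapbp*, *Tap1*, *B2m*, *Tap2*, *Psmb9* and *Psme1*, from the largest to the smallest, and the falls those of *Psme2* and *Psmb8*. Across all genes tested, 30.9% rose, 35.3% fell and 66.2% were called in either direction, so a call as such was common in this comparison. The median log2 fold change of the 10 genes was 0.17, against -0.02 over all genes tested. The genes of peptide transport and loading carried the large rises, between 0.39 and 1.01 on the log2 scale. The 5 genes of the proteasome and its activator lay between -0.21 and 0.19, and *Nlrc5* lay at -0.07.

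**Figure D1:**
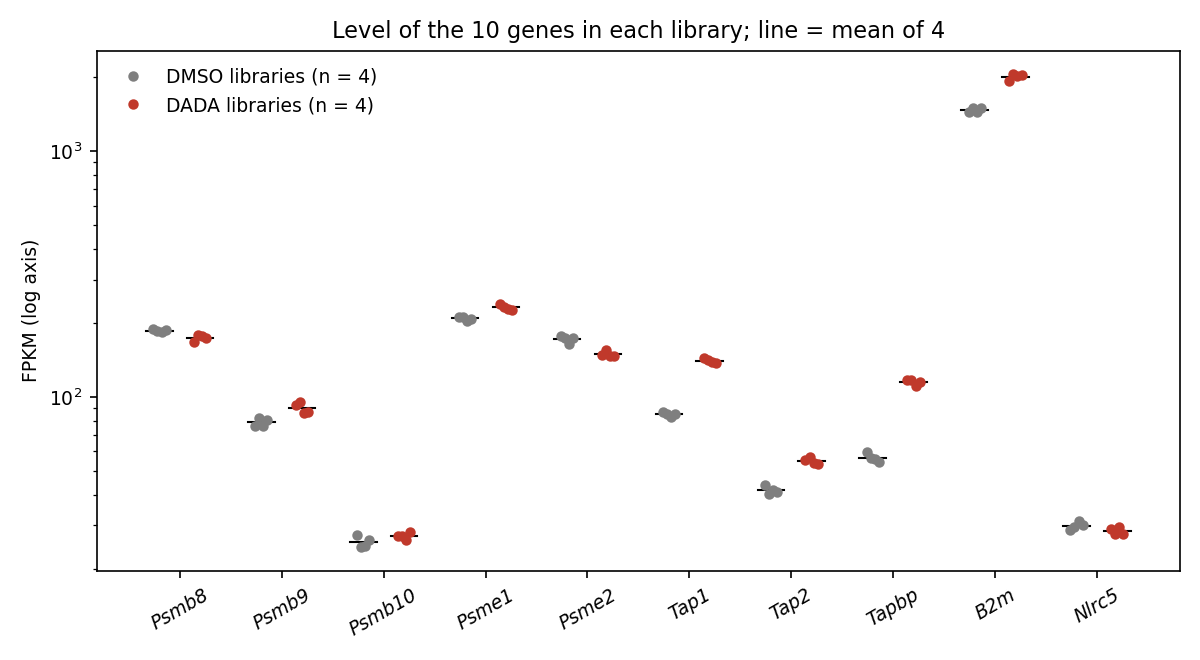
FPKM of the 10 genes in each of the 4 DMSO (grey) and 4 DADA (red) libraries, on a log axis, with the mean of each group as a line. The DADA points of *Tapbp* (111 to 117 FPKM) lie far above its DMSO points (54.2 to 59.8 FPKM), while those of *Nlrc5* and *Psmb10* overlap the DMSO points.

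With DMSO, the order of the levels ran from *B2m* (1469 FPKM) over *Psme1* (209), *Psmb8* (186), *Psme2* (172), *Tap1* (84.9), *Psmb9* (78.8), *Tapbp* (56.5), *Tap2* (41.7) and *Nlrc5* (29.9) down to *Psmb10* (25.7 FPKM), all as group means. No gene overlapped its neighbour in this order. With DADA, *Tapbp* and *Psmb9* changed places, and *Nlrc5* (28.4 FPKM) and *Psmb10* (27.2 FPKM) overlapped. *B2m* had a higher mean than 99.8% of the genes tested, and *Psmb10*, the lowest, than 71.3%.

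The 3 catalytic subunits of the immunoproteasome each take the place of a constitutive subunit when a new proteasome is built: PSMB8 (LMP7) that of PSMB5, PSMB9 (LMP2) that of PSMB6 and PSMB10 (MECL-1) that of PSMB7. *Psmb8* (ENSMUSG00000024338), the most abundant of the 3, was at 189, 185, 183 and 188 FPKM in DMSO 1 to 4 and at 167, 178, 177 and 173 FPKM in DADA 1 to 4. No DADA library reached the lowest DMSO library, and the means of 186 ± 2.64 and 174 ± 4.77 FPKM (SD, n = 4) gave a log2 fold change of -0.10 (SE 0.0242, adjusted p = 0.00500 in limma). This small fall was not called after quantile normalization (log2 fold change -0.05, adjusted p = 0.0814 in limma). *Psmb9* (ENSMUSG00000096727) was at 76.2, 82.0, 76.4 and 80.8 FPKM under DMSO and at 92.9, 95.1, 85.9 and 87.0 FPKM with DADA. The groups did not overlap, and *Psmb9* rose by a log2 fold change of 0.19 (SE 0.0394, adjusted p = 0.00165 in limma). *Psmb10* (ENSMUSG00000031897) was at 27.4, 24.5, 24.7 and 26.3 FPKM under DMSO and at 27.1, 27.1, 26.3 and 28.2 FPKM with DADA. DMSO 1 was as high as the DADA libraries, and the difference of 0.08 (95% interval -0.01 to 0.17) was not called (adjusted p = 0.114 in limma). Without DMSO 1 the log2 fold change of *Psmb10* was 0.11 and it was called (adjusted p = 0.0280 in limma), as it was after rescaling each library to the same total (adjusted p = 0.0322 in limma).

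The 3 constitutive partners all fell, each by more than *Psmb8*, the only inducible subunit called lower. *Psmb5* fell from 150 ± 7.06 to 117 ± 4.38 FPKM (SD, n = 4), with a log2 fold change of -0.36 (adjusted p = 1.60e-05 in limma). *Psmb6* fell from 163 ± 3.44 to 145 ± 2.19 FPKM, with a log2 fold change of -0.16, and *Psmb7* from 191 ± 2.57 to 160 ± 7.62 FPKM, with a log2 fold change of -0.25. Each pair was therefore also read as a ratio within a library, which does not depend on how the libraries are scaled against each other. Of the summed FPKM of *Psmb8* and *Psmb5*, *Psmb8* made up 54.7, 54.3, 55.3 and 57.0% in DMSO 1 to 4 and 59.4, 59.2, 61.1 and 59.6% in DADA 1 to 4. The share of *Psmb9* in its pair with *Psmb6* was 31.7, 32.9, 32.4 and 33.5% with DMSO and 39.1, 39.9, 37.3 and 36.9% with DADA. For *Psmb10* and *Psmb7*, the share of *Psmb10* was 12.4, 11.4, 11.4 and 12.3% with DMSO and 15.1, 14.5, 13.3 and 15.3% with DADA. In all 3 pairs, the inducible subunit held a larger share in every DADA library than in any DMSO library. The log2 ratio rose by 0.27 (SE 0.0443) for *Psmb8*, 0.36 (SE 0.0492) for *Psmb9* and 0.33 (SE 0.0641) for *Psmb10* (two-sided exact permutation test over 70 assignments, p = 0.0286 for each, n = 4 per group). This is the smallest p that 4 against 4 libraries allow. It stayed at 0.0286 after Benjamini-Hochberg adjustment over the 8 ratios compared, which all reached it. Groups that do not overlap always give this p, and 60.6% of all genes tested, taken singly, did not overlap. *Psmb9* was higher and *Psmb6* lower in every DADA library than in any DMSO library. The p-value of their ratio was thus fixed by the changes of the single genes. How often other pairs of genes separate in this way was not tested. For *Psmb8* the ratio rose although *Psmb8* itself was lower, *Psmb5* being lower by more. *Psmb10* itself was not called (log2 fold change 0.08), while its partner *Psmb7* was lower (-0.25). All shares given are of RNA, and subunit proteins were not measured.

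**Figure D2:**
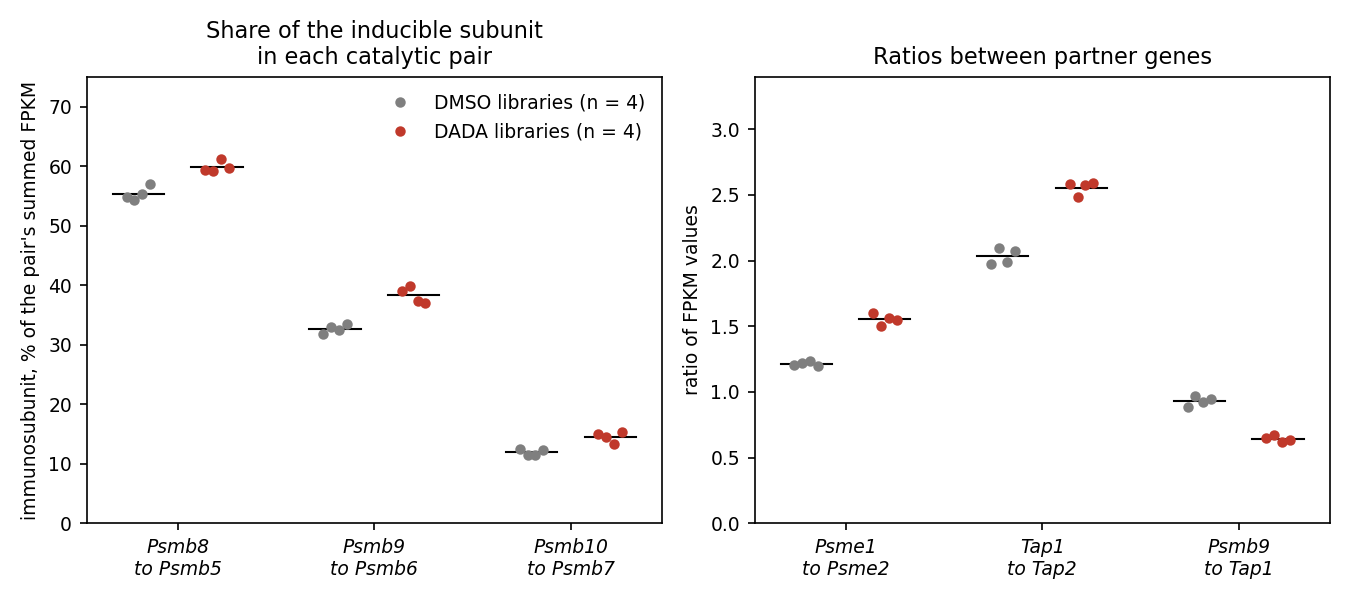
Left, share of the inducible catalytic subunit in the summed FPKM of its pair, in percent, and right, ratios of FPKM values of partner genes, for 4 DMSO (grey) and 4 DADA (red) libraries with group means as lines. The share of *Psmb9* lies at 31.7 to 33.5% with DMSO and at 36.9 to 39.9% with DADA, and no pair of groups overlaps.

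The constitutive subunits without a catalytic role were mostly lower, where 35.3% of all genes tested were called lower and 30.9% higher. All 11 other subunits of the 20S core, the barrel that holds the catalytic sites, were called lower, with a median log2 fold change of -0.25 and the largest falls in *Psma2* (-0.40) and *Psma1* (-0.33). Of the 18 subunits of the 19S regulator, the cap that unfolds ubiquitin-tagged proteins, 16 were lower and none higher, although 1 was called higher under 3 other scalings, with a median of -0.23 and the largest falls in the ATPase genes *Psmc1* (-0.53) and *Psmc2* (-0.50). The other 2, named after their values were seen, were *Psmd8* (0.06; adjusted p = 0.0536 in limma) and *Psmd4* (-0.08; adjusted p = 0.0544 in limma). Among the assembly chaperones, which put the core together, *Psmg1* fell most, from 54.2 ± 1.43 to 34.0 ± 2.10 FPKM (log2 fold change -0.66). The single rise in that list of 8, against 6 falls, was that of *Psme4*, the gene of the PA200 activator, with a log2 fold change of 0.19.

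PA28 is a ring of PSME1 and PSME2 subunits that opens the ends of the proteasome barrel, and its 2 genes moved in opposite directions. *Psme1* (ENSMUSG00000022216) was at 212, 212, 204 and 208 FPKM under DMSO and at 239, 232, 228 and 226 FPKM with DADA. The groups did not overlap, and *Psme1* rose by a log2 fold change of 0.15 (SE 0.0240, adjusted p = 3.92e-04 in limma). *Psme2* (ENSMUSG00000079197) was at 176, 174, 164 and 174 FPKM under DMSO and at 149, 155, 146 and 146 FPKM with DADA. Here every DADA library was lower, and *Psme2* fell by 0.21 on the log2 scale (SE 0.0283, adjusted p = 1.11e-04 in limma). *Psme1* made up 54.6, 55.0, 55.3 and 54.5% of the summed FPKM of both in DMSO 1 to 4 and 61.6, 60.0, 60.9 and 60.7% in DADA 1 to 4, a log2 difference of their ratio of 0.35 (SE 0.0230; exact permutation test, p = 0.0286, n = 4 per group). With *Psme1* higher and *Psme2* lower in every DADA library, the ratio had to separate. Its p-value therefore adds nothing to the changes of the single genes. *Psme2* is uncertain in level, since the retrogene *Psme2b* shares 789 of 794 aligned transcript bases with it (99.4%) and the assignment of fragments could split them. *Psme2b* was listed at 56.8 to 80.7 FPKM in the DMSO libraries and 56.9 to 64.0 FPKM with DADA. Against the sum of both copies, an alternative added after the data were seen, *Psme1* gave ratios of 0.830 to 0.914 with DMSO and 1.06 to 1.16 with DADA, a log2 difference of 0.33 (exact permutation test, p = 0.0286, n = 4 per group). *Psme3*, which forms a nuclear activator ring of its own, fell further than *Psme2*, from 146 ± 2.20 to 99.5 ± 3.53 FPKM (log2 fold change -0.54; adjusted p = 7.76e-08 in limma), and the log2 ratio of *Psme2* to *Psme3* rose by 0.34 (SE 0.0228; exact permutation test, p = 0.0286, n = 4 per group).

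TAP1 and TAP2 pair to form the pump that moves peptides from the cytosol into the endoplasmic reticulum. *Tap1* (ENSMUSG00000037321) was at 86.4, 84.9, 83.1 and 85.1 FPKM under DMSO and at 143, 141, 139 and 138 FPKM with DADA. The groups were far apart, with means of 84.9 ± 1.37 and 140 ± 2.54 FPKM (SD, n = 4) and a log2 fold change of 0.72 (SE 0.0220, adjusted p = 1.86e-09 in limma). *Tap2* (ENSMUSG00000024339) was at 43.7, 40.4, 41.8 and 41.0 FPKM under DMSO and at 55.5, 56.8, 53.8 and 53.2 FPKM with DADA. It rose in every DADA library, but by less than *Tap1*, with a log2 fold change of 0.39 (SE 0.0318, adjusted p = 2.64e-06 in limma). The ratio of *Tap1* to *Tap2* went from 1.98, 2.10, 1.99 and 2.08 with DMSO to 2.58, 2.48, 2.57 and 2.59 with DADA, a log2 difference of 0.33 (SE 0.0263; exact permutation test, p = 0.0286, n = 4 per group).

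*Psmb9*, *Tap1*, *Psmb8* and *Tap2* are consecutive protein-coding genes inside the MHC on chromosome 17, in this order in the RefSeq annotation of GRCm38.p6. *Psmb9* and *Tap1* are read away from each other, and 225 bases lie between their RefSeq starts, a stretch known as their shared promoter. The 2 genes changed by different amounts. The ratio of *Psmb9* to *Tap1* was 0.882, 0.966, 0.919 and 0.950 with DMSO and 0.648, 0.675, 0.620 and 0.632 with DADA, a log2 difference of -0.53 (SE 0.0395; exact permutation test, p = 0.0286, n = 4 per group). In the GENCODE M21 annotation, these genes also overlap on opposite strands, and the sources used here do not say whether fragments were assigned by strand. The block thus held a gene that rose by 0.72, one that rose by 0.39, one that rose by 0.19 and one that fell by 0.10 on the log2 scale.

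The promoter table of RefSeq (GRCm38.p6, 250 bases before and 50 after each start) held 8 of the 10 genes and not *Tap2* and *Nlrc5*. It was searched on both strands for 4 short motifs. They were the interferon-stimulated response element, GAAA followed after 2 free bases by GAAA, which the ISGF3 complex and interferon regulatory factors bind, the gamma-activated site TTCNNNGAA, the CCAAT box of NF-Y and the cyclic AMP response element core TGACG. The stretches of the 3 genes with the largest rises (*Tapbp*, *Tap1* and *B2m*) and of the 2 others that hold an interferon motif (*Psmb8* and *Psme1*) follow, 5′ to 3′ along the plus strand, with every motif match in capitals. *Psmb9* is read on the minus strand and the others on the plus strand, and no matches of different motifs overlapped. The stretch of *Psme1* lies just after its start.

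B2m, chr2:122147437-122147686: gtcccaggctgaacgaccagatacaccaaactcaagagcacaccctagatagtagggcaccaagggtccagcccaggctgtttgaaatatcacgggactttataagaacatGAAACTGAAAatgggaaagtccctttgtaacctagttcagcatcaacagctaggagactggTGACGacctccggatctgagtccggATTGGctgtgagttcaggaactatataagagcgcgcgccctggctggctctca
Psmb9 to Tap1, chr17:34187331-34187555: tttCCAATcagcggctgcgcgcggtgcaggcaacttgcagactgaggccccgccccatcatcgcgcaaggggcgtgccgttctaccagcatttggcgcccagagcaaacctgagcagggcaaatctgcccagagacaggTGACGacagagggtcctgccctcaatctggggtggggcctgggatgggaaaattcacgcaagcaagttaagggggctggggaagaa
Tapbp, chr17:33919228-33919477: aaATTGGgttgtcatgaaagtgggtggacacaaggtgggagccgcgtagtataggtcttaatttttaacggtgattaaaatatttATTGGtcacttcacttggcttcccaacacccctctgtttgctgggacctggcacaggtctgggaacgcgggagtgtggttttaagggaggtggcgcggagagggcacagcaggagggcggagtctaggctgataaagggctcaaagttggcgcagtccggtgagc
Psmb8, chr17:34197945-34198194: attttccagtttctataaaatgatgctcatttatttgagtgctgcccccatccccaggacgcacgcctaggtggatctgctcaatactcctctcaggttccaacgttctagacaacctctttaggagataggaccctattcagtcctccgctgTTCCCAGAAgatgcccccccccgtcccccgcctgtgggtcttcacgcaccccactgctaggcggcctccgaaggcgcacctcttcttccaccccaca
Psme1, chr14:55578494-55578517: gagctgtgcTTTCGCTTTCccttc

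The interferon-stimulated response element was found in 2 of the 8 genes, *B2m* and *Psme1*, and in 3.44% of all 32851 promoter windows. The gamma-activated site was found in *Psmb8* alone, against 8.30% of all windows. CCAAT boxes stood in 4 of the genes (*B2m*, *Tapbp*, *Psmb9* and *Tap1*, the last 2 sharing one) and in 37.4% of all windows, and the cyclic AMP response element core in 4 genes (*B2m*, *Psme2*, *Psmb9* and *Tap1*, the last 2 again sharing one) and 20.8% of all windows. *Tapbp* held neither of the 2 interferon motifs as spelled here in this window. Other spellings and sites outside the window were not searched, and whether a motif bears on the changes was not tested. A match says only that these letters are in the window.

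Tapasin, encoded by *Tapbp*, holds empty class I molecules at the TAP pump until a peptide fits. *Tapbp* (ENSMUSG00000024308) had the largest change of the 10 genes. It was at 59.8, 56.5, 55.6 and 54.2 FPKM under DMSO and at 117, 117, 111 and 115 FPKM with DADA, a 2.03-fold difference between the means (log2 fold change 1.01, SE 0.0322, adjusted p = 2.43e-09 in limma). By the size of its change, *Tapbp* ranked at place 429 among the 10666 genes tested, and *Tap1* at 822. The neighbouring gene *Zbtb22*, which overlaps *Tapbp* in GENCODE M21, was at 7.72 to 9.25 FPKM in the DMSO libraries and 8.63 to 9.41 FPKM with DADA and was not called (adjusted p = 0.0854 in limma). Of all genes tested, 30.9% rose and 35.3% fell. Of 7 further chaperones and trimming enzymes of the endoplasmic reticulum, 5 rose, 1 fell and 1 was not called. The largest rises were those of *Hspa5*, the general chaperone BiP (log2 fold change 0.65), and *Calr*, the lectin calreticulin of the loading complex, which went from 248 ± 3.42 to 355 ± 4.74 FPKM (log2 fold change 0.52). *Erap1*, the aminopeptidase that trims peptides before loading, fell from 29.3 ± 1.74 to 24.4 ± 0.659 FPKM (log2 fold change -0.26; adjusted p = 3.58e-04 in limma).

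*B2m* (ENSMUSG00000060802) encodes the light chain that every classical class I molecule needs. It was at 1440, 1497, 1439 and 1498 FPKM under DMSO and at 1926, 2049, 2020 and 2034 FPKM with DADA. All DADA libraries lay above all DMSO libraries, and the log2 fold change was 0.45 (SE 0.0271, adjusted p = 2.53e-07 in limma). All 8 genes on the chosen list of class I heavy chains rose as well, with a median of 0.55, against 30.9% of all genes tested. The largest rises were those of *H2-T23* (1.02) and *H2-T22* (0.85). Fragments of class I genes that resemble each other could be split among them, which was not tested. *H2-K1* rose from 857 ± 29.6 to 1059 ± 19.4 FPKM (log2 fold change 0.31) and *H2-D1* from 556 ± 7.04 to 699 ± 6.98 FPKM (log2 fold change 0.33). *B2m* relative to the sum of *H2-K1* and *H2-D1* was 0.987, 1.07, 1.02 and 1.08 with DMSO and 1.09, 1.15, 1.17 and 1.16 with DADA. The smallest DADA ratio lay only just above the largest DMSO ratio, and the log2 difference was 0.13 (SE 0.0391; exact permutation test, p = 0.0286, n = 4 per group).

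**Figure D3:**
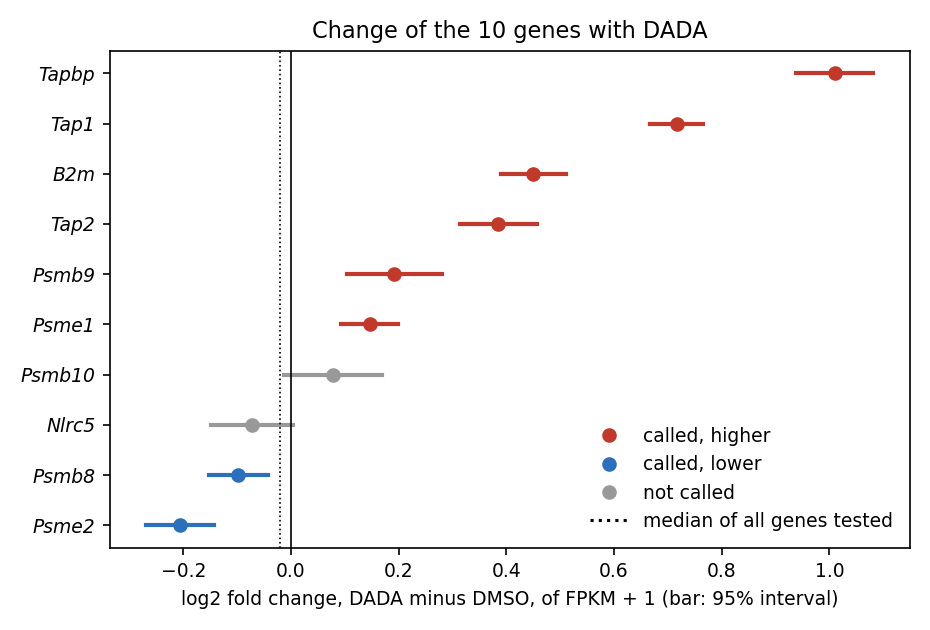
Log2 fold change of the 10 genes on the log2(FPKM + 1) scale, DADA minus DMSO, with the 95% interval as a bar, and the median of all genes tested (-0.02) as a dotted line. The points run from -0.21 for *Psme2* to 1.01 for *Tapbp*, and the intervals of *Psmb10* and *Nlrc5* include 0.

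NLRC5 is the transactivator that is recruited to class I promoters and is known to drive *B2m*, *Tap1*, *Psmb9* and the heavy chains. *Nlrc5* (ENSMUSG00000074151) was at 28.8, 29.5, 31.3 and 30.1 FPKM under DMSO and at 28.9, 27.6, 29.5 and 27.7 FPKM with DADA. The groups overlapped, and the difference of -0.07 (95% interval -0.15 to 0.0042) was not called (adjusted p = 0.0867 in limma). Without DMSO 1 it was -0.09 and was called lower (adjusted p = 0.0473 in limma). NLRC5 protein was not measured, and whether it had a part in the changes of the other genes was not tested.

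Of all genes tested, 30.9% rose, 35.3% fell and 66.2% were called in either direction, with a median of -0.02. Among 14 tested transcription factors that act on class I promoters, 9 rose and 3 fell, with a median of 0.22. *Stat2* and *Irf9*, 2 parts of the ISGF3 complex, rose most: *Stat2* was at 11.9 ± 0.162 FPKM in the DMSO libraries and 32.4 ± 0.576 FPKM with DADA (log2 fold change 1.38; adjusted p = 7.74e-11 in limma), and *Irf9* went from 11.98 ± 0.742 to 29.8 ± 0.883 FPKM (log2 fold change 1.25). The largest falls were those of *Nfkb1*, which encodes the p50 subunit of NF-kB and its precursor (-0.45), and *Nfya*, a subunit of NF-Y (-0.41). The remaining fall, named after its values were seen, was that of *Irf1*, from 32.9 ± 0.943 to 29.0 ± 0.403 FPKM (log2 fold change -0.18; adjusted p = 2.96e-04 in limma). *Ciita*, the class II counterpart of *Nlrc5*, was listed at 0 in every DMSO library and at 0.0169, 0.0183, 0 and 0.0341 FPKM in DADA 1 to 4, and did not pass the filter. In the list of the interferon ligand, receptors and kinases, 4 of 8 genes rose and 2 fell, with a median of 0.04. *Ifng* (0.68) and *Ifngr1* (0.32) had the largest rises, and *Ifnar1* (-0.37) and *Jak1* (-0.16) the largest falls. Of 7 cytosolic peptidases, which trim or destroy proteasome products, 2 rose and 3 fell. *Npepps*, the puromycin-sensitive aminopeptidase, rose from 21.97 ± 0.819 to 38.1 ± 1.49 FPKM (log2 fold change 0.77; adjusted p = 5.14e-08 in limma) and *Dnpep* by 0.40, while *Blmh* (-0.32) and *Thop1* (-0.27) fell. Over these 9 lists, 29 of 84 tested genes were higher and 45 lower, against 30.9% higher and 35.3% lower of all genes tested. The groups did not overlap for 8 of the 10 genes followed here (6 higher, 2 lower), against 60.6% of all genes tested (28.4% higher, 32.2% lower), and for 72 of the 84 partner genes.

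**Figure D4:**
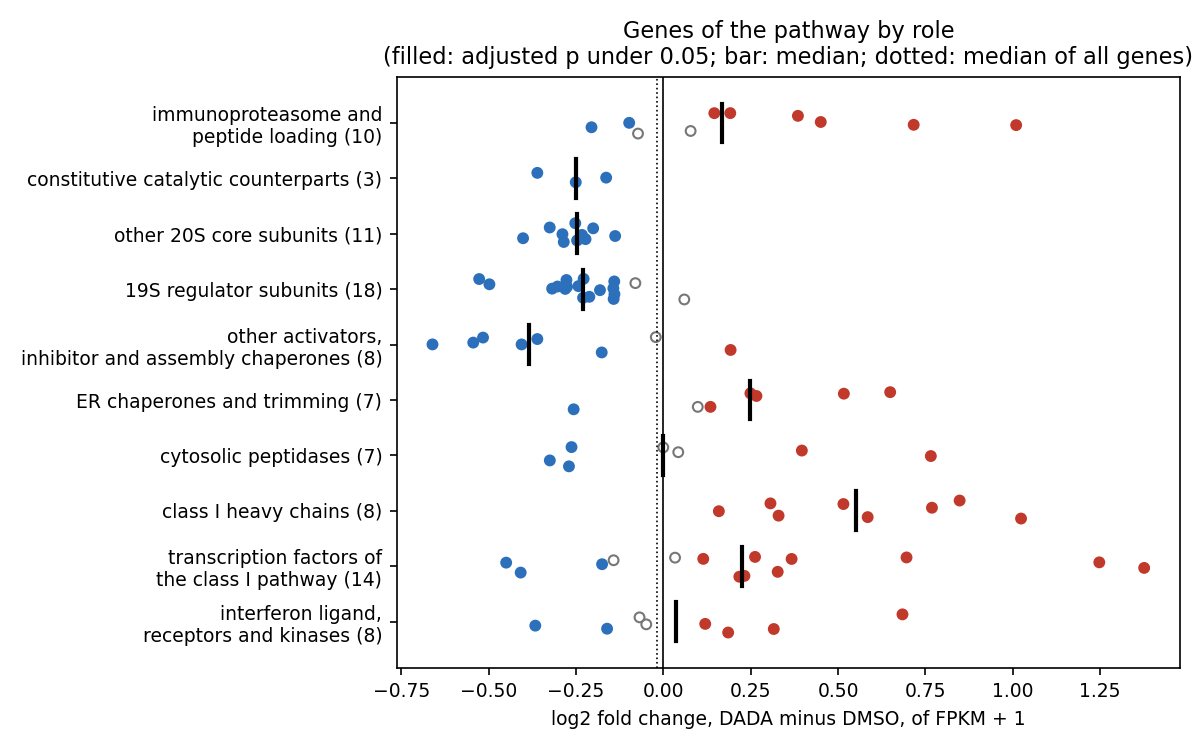
Log2 fold change on the log2(FPKM + 1) scale of each tested gene, by role, with called genes filled (red higher, blue lower), genes not called open, the median of each list as a bar and that of all genes as a dotted line. The lists of constitutive proteasome subunits lie left of 0 apart from *Psmd8* (medians -0.25, -0.25 and -0.23) and the class I heavy chains right of it (median 0.55).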

How the data were processed

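Bulk RNA-seq of 8 libraries was used, 4 with DMSO and 4 with DADA, grouped by their titles. The authors deposited FPKM values for each library in 1 table. The submitters' processing notes name HISAT2 2.0.5 and StringTie 1.3.3 among the tools and GRCm39 and GRCh38 as builds, without roles, and the labels and the paper name different mRNA library kits. The table includes 404 assembled transcripts. No coordinates of the table's build are given.

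Here, log2(FPKM + 1) was fitted in limma 3.58.1 (R 4.3.3) with the treatment as the only term, a trend of the variance on the level in eBayes, and p-values adjusted by Benjamini-Hochberg across every gene with 4 or more libraries at 1 FPKM or higher. Ratios were tested with two-sided exact permutation tests (scipy 1.17.1). The fit and the depth estimate, a search between 10000000 and 24000000 fragments, were tested on simulated data. The authors' FPKM hold no counts, so no count model was used.

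The 10 genes, the partner lists and the markers were chosen with earlier results of these data known. Named genes are the 10, the genes of each ratio, per list the 2 called genes that rose and the 2 that fell most, the flanking genes of neighbouring members, and the 3 genes closest to *Tap1* and to *Nlrc5* over the 8 libraries. One listed marker, *Trac*, had no row under this symbol. Alternatives were another pseudocount (0.1), no filter, a mean of at least 5 FPKM, rescaling to equal totals (TPM), median-ratio and quantile scaling, a constant prior variance, a block for the replicate number, omission of single libraries, and, added after the data were seen, a fit without assembled transcripts. Some items are not reported here.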

Additional observations from a re-analysis of the deposited data

Results flagged for a closer look

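Of 106 groups of 4 libraries, over the genes named and the 8 ratios, 4 held a library whose gap to the nearest other exceeded Dixon's 95% point for 4 values, as a share of the range of its group. Chance gives about 1 in 20, which is 5.3 groups here. One concerned the genes followed here: the ratio of *Tap1* to *Tap2* was 2.48 in DADA 2 and 2.57 to 2.59 in the other DADA libraries (Dixon's ratio 0.872), all above the DMSO libraries. The others were partner genes. In DMSO 3, *Psme4* stood at 19.8 FPKM, the other DMSO libraries holding 20.7 to 20.8 FPKM (0.851). In DMSO 4, *Calr* stood at 243 FPKM, the others holding 249 to 250 FPKM (0.894). In DADA 2, *Thop1* stood at 17.5 FPKM, the others holding 15.7 to 16.0 FPKM (0.842).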

How the results depend on the processing

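Of the 10 genes, 6 to 7 were called higher under every alternative and 1 to 3 lower. After quantile normalization the count of lower genes was 1, since *Psmb8* was not called. With single libraries left out, the counts were 6 to 7 higher and 2 to 3 lower. Of 765 values of named genes under the alternatives, none changed direction and 757 kept their side of the threshold. The exceptions outside the 10 genes were *Chd8*, *Svil* and *Chaf1a*. Over the partner lists, 28 to 31 genes were higher and 42 to 46 lower, and 1 of the 19S subunits was called higher under 5 alternatives, 3 of them scalings. All 81 alternative values of the 8 ratios moved by less than 1 SD. Without 1 library the exact test cannot go below p = 0.0571, and with the pairs of replicate numbers not below 0.125, so these say nothing about a call. With the replicate number as a block, 6 genes were higher and 2 lower among the 10, 29 and 46 on the partner lists, and the log2 difference of *Psmb9* to *Psmb6* stayed at 0.36. Same-numbered libraries did not deviate together (correlations of deviations 0.095, -0.12, -0.088 and 0.075, none best with its own number), so the numbers were not taken as pairs. The scalings moved the median of all genes by less than 0.1. By the estimated depth, *Psmb10* and *Nlrc5* were the least covered of the 10 genes, with 331 and 420 fragments per kilobase in their lowest library.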

Other observations

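*Psme1* and *Psme2* are separated by *Emc9*, and *Rnf31* and *Irf9* follow *Psme2*. These neighbours, named after their values were seen, did not share the fall of *Psme2*. *Emc9* was at 2.15 to 2.75 FPKM with DMSO and 2.79 to 4.31 FPKM with DADA (log2 fold change 0.31; limma, adjusted p = 0.0280), although it overlaps the far more abundant *Psme1* on the opposite strand in GENCODE M21. *Rnf31*, a subunit of the linear ubiquitin ligase, rose from 14.1 ± 0.832 to 17.3 ± 0.840 FPKM (log2 fold change 0.28; limma, adjusted p = 5.69e-04). The genes on either side of the *Psmb9* to *Tap2* block, *H2-DMb1* and *H2-Ob*, did not pass the filter. *H2-DMb1* was at 0.472 to 0.827 FPKM with DMSO and 0.689 to 1.08 FPKM with DADA, and *H2-Ob* at 0.562 to 0.686 and 0.806 to 1.27 FPKM.

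The genes outside all lists whose log2(FPKM + 1), centred on the gene's own mean, lay closest to that of *Tap1* over the 8 libraries were *Il2rb* (Euclidean distance 0.0515), *Alkbh5* (0.0692) and *Cd2* (0.0701). *Il2rb*, the beta chain of the IL-2 receptor, rose from 151 ± 0.575 to 253 ± 2.63 FPKM (log2 fold change 0.74). Closest to *Nlrc5* were *Chd8* (0.0392), *Svil* (0.0657) and *Chaf1a* (0.0693), with log2 fold changes of -0.09, -0.07 and -0.11, of which only that of *Chaf1a* was called (limma, adjusted p = 0.0191), and it was not called after rescaling to equal totals or without DMSO 3. With 2 groups, such closeness mostly repeats the size of the change between them.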
